A study of Homo sapiens with 12 samples.

Results

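The MHC class I and peptide loading genes are the transcripts behind the molecules with which a cell shows peptides from its own proteins to CD8+ T cells. Members were chosen by symbol, and 9 of the 23590 gene symbols measured belong: HLA-B, HLA-C, HLA-E and HLA-F, which encode heavy chains; B2M, the shared light chain; TAP1, TAP2 and TAPBP of the loading complex; and PSMB8, a catalytic subunit of the immunoproteasome. No measured value entered the rule, although earlier results of these data were known when the members were chosen. All 9 passed the filter on low values that left 14429 genes for testing. B2M lies on chromosome 15 and the other 8 lie on chromosome 6.

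The study set naive against primed human pluripotent cells in H9 and RUES2, both established embryonic stem cell lines, with 3 libraries of poly(A) RNA from hand-picked colonies in each of 4 groups. Naive H9 (passages 27 to 31) and naive RUES2 (passages 24 to 26) grew with PD0325901 (1 µM), which inhibits MEK, CHIR99021 (3 µM), which inhibits GSK3, LIF (20 ng/mL), insulin (18 µg/mL) and 5 mM glucose. Primed H9 (passages 31 to 35) and primed RUES2 (passages 30 to 33) grew with 4 ng/mL bFGF over mouse embryonic fibroblast feeders treated with mitomycin C. No genetic change is labelled in any group, medium and state cannot be told apart, and how the 3 cultures of a group were kept apart is not labelled; p-values here cover the spread over libraries, which may be partly technical.

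A class I molecule is a heavy chain held to B2M, and it leaves the endoplasmic reticulum stably only with a peptide bound. Proteasomes cut the peptides, the transporter formed by TAP1 and TAP2 carries them into the endoplasmic reticulum, and tapasin, the product of TAPBP, holds the empty heavy chain beside that transporter. Interferons raise the whole set in most cell types, and pluripotent stem cells are known for low class I at the surface.

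The unit is FPKM, a fragment number divided by transcript length and by the mapped fragments of its library, so levels can be compared between genes. HLA reads were assigned to 1 reference sequence per locus. Comparisons among HLA genes, and of an HLA gene between line labels or libraries that may differ in genotype, are therefore less certain. The effect of that assignment on HLA levels was not tested. Between 12681 and 13593 symbols reached 1 FPKM in a library. Genes whose expression depends on the line's genotype set 3 of the 12 libraries apart from the rest of their line label, none of them labelled H9, so RUES2 is used here as a label, a line here means a labelled line, and whether the RUES2 contrast lies within 1 line is not settled. The H9 comparison contrasts none of the 3, and fitted on H9 libraries alone it called the same number of members, 7. Pluripotency markers summed to 1375 to 1424 FPKM in naive H9, against 2467 to 2952 FPKM in primed H9, and to 1453 to 1753 FPKM in naive libraries labelled RUES2, against 2602 to 2969 FPKM in primed ones. All 12 were tested, with 8 called lower and 0 higher in naive H9, and 11 lower and 1 higher in naive libraries labelled RUES2. The 1 higher was NANOG, with 193 to 459 FPKM in naive libraries labelled RUES2, against 33.2 to 63.4 FPKM in primed ones. Sums of fibroblast and stroma markers moved the other way from those of pluripotency markers. They were 469 to 710 FPKM in naive H9, against 189 to 251 FPKM in primed H9. In naive libraries labelled RUES2 they were 277 to 1247 FPKM, against 147 to 236 FPKM in primed ones. Of the 12 fibroblast and stroma markers 11 were tested, with 9 called higher and 1 lower in naive H9, and 7 higher and 1 lower in naive libraries labelled RUES2. FAP, which marks activated fibroblasts, was listed at 0 in all 6 primed libraries. Blood and immune markers summed to 5.43 to 6.02 FPKM in naive H9, against 7.13 to 14.1 FPKM in primed H9, and to 5.23 to 5.70 FPKM in naive libraries labelled RUES2, against 9.02 to 10.0 FPKM in primed ones. Only 3 of these 12 markers were tested, and AIF1 was the 1 called, lower in naive cells of each line label. It passed the filter on low values through primed libraries alone. AIF1 lies on chromosome 6, within the span of the members. PTPRC, which all white blood cells carry, was at most 0.422 FPKM in any library. Of 11 neural markers 6 were tested, and 5 were called higher and 0 lower in naive cells of each line label, with sums of 313 to 335 FPKM in naive H9, against 142 to 180 FPKM in primed H9, and of 326 to 368 FPKM in naive libraries labelled RUES2, against 102 to 179 FPKM in primed ones. Of 10 endoderm markers 9 were tested, with 3 higher and 1 lower in naive H9 and 4 higher and 1 lower in naive libraries labelled RUES2. Of 12 trophoblast markers 5 were tested, with 2 higher and 1 lower in naive H9 and 2 higher and 2 lower in naive libraries labelled RUES2. In bulk RNA, fewer cells of a type and less RNA per cell cannot be told apart, and the part of other cell types in the results that follow was not tested.

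Within H9, naive cells were lower than primed cells in 7 of the 9 genes and higher in none, where 23.9% of all genes tested were called lower and 20.4% higher. Among libraries labelled RUES2, 7 of the 9 were lower in naive cells and 1, B2M, was higher, where 23.7% of all genes were called lower and 23.1% higher. The same 7 genes were called lower in H9 and in libraries labelled RUES2, against 16.5% of all genes tested. Of these, TAP1, TAP2 and PSMB8 reached the filter's 1 FPKM in no naive library. They entered testing only through the primed groups, where they were high, so their calls are not independent of the filter. The median change of the 9 genes was -1.06 on the log2(FPKM + 1) scale in H9, beside -0.010 for all genes, and -1.19 in libraries labelled RUES2, beside 0.012 for all genes. Changes on this scale understate those of genes at low levels, and a gene was called at an adjusted p under 0.05 over all genes.

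**Figure D1:**
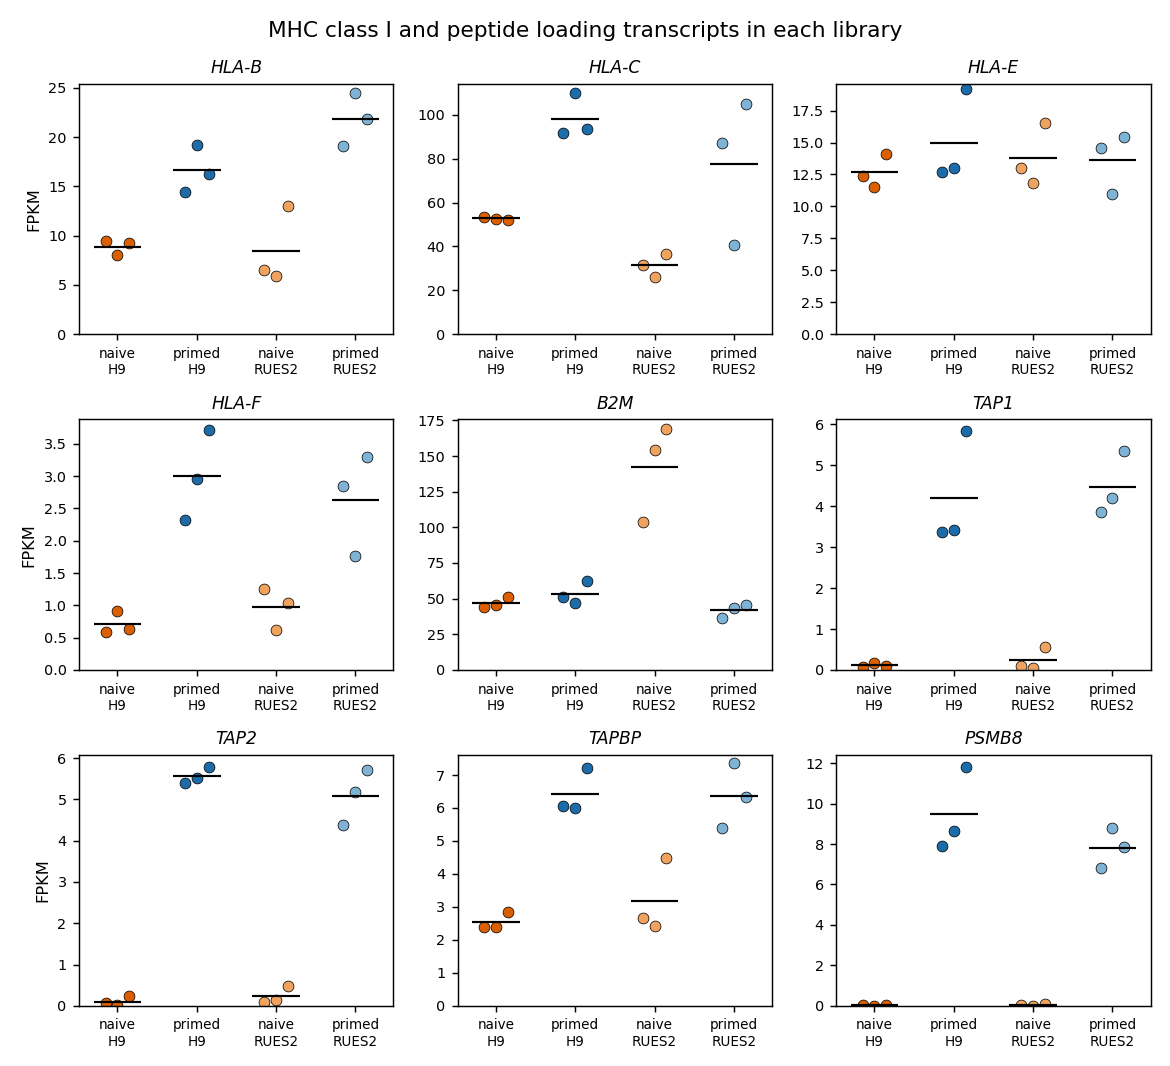
FPKM of each of the 9 genes (vertical axes, linear, from 0) in the 12 libraries, grouped as naive H9, primed H9, naive RUES2 and primed RUES2 by label; each point is 1 library and each bar a group mean. TAP1, TAP2 and PSMB8 sit at or under 0.555 FPKM in all 6 naive libraries and at or above 3.36 FPKM in all 6 primed ones, while B2M stands at 104 to 169 FPKM in naive libraries labelled RUES2 alone.

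The stretches before the gene starts are shown because 7 of these genes were lower together while B2M was not. RefSeq promoters (GRCh38.p14) were at hand for 8 of the 9 genes, with 10 starts in all. Each line gives the 200 bases before a start, 5′ to 3′ on the gene's strand. Capitals mark GAANNGAAA and GAAANNGAA, both forms of the interferon-stimulated response element, GGGGANTCC, an NF-kB motif, and TGACG, the core letters bound by CREB and ATF proteins, each searched on both strands.
HLA-B (chr6:31357180-31357379, minus strand): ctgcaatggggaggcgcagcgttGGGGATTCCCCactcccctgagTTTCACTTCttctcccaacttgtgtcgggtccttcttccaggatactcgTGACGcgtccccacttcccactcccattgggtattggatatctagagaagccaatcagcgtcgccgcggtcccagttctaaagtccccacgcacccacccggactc
B2M (chr15:44711317-44711516, plus strand): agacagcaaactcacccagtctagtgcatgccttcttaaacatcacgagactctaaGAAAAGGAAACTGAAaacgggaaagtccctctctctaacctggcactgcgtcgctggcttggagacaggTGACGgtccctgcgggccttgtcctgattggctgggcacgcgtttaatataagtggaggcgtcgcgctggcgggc
TAP1, first of 2 starts (chr6:32853705-32853904, minus strand): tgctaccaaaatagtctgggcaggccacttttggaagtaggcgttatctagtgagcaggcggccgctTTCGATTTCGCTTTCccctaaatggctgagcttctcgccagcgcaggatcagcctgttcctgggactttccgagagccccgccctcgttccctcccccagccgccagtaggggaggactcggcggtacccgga
TAP2 (chr6:32838740-32838939, minus strand): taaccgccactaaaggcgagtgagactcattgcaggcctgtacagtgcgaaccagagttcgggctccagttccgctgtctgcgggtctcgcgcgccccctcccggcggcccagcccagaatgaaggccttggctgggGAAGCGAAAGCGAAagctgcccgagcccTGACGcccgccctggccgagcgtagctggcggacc
TAPBP (chr6:33314079-33314278, minus strand): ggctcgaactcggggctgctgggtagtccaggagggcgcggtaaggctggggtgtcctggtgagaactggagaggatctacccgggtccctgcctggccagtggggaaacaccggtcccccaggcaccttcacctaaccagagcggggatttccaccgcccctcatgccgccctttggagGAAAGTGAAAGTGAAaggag
PSMB8, first of 2 starts (chr6:32844680-32844879, minus strand): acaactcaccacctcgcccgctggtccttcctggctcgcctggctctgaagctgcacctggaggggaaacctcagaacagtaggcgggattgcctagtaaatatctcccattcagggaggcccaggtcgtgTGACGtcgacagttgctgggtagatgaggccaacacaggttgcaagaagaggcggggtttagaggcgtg

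Searched over the 250 bases before the start, 6.56% of 35116 promoters held GAANNGAAA and 6.88% held GAAANNGAA; the forms can overlap. B2M held GAAANNGAA beginning 144 and 138 bases before its start, and HLA-B held GAANNGAAA at 155 bases. Matches stood 133 and 127 bases before the first start of TAP1, 63 and 58 bases before that of TAP2, and 20 and 14 bases before that of TAPBP. HLA-C had a match at 151 bases and HLA-F at 155 bases, on sequences not printed here. Neither start of PSMB8 had a match of either form in this window. GGGGANTCC, found in 1.36% of promoters, stood at overlapping positions 177 and 175 bases before the start of HLA-B. TGACG, in 21.2% of promoters, began 106 bases before HLA-B, 105 before HLA-C, 75 before B2M, 69 before the first start of PSMB8 and 35 before TAP2. Matches thus stood both before genes that were lower and before B2M, and a match describes letters, not a bound site.

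Of the heavy chains, 3 of 4 members were lower in naive cells of H9 and of libraries labelled RUES2. HLA-B, a classical heavy chain that presents peptides to CD8+ T cells (chromosome 6, 31321649 to 31324989 on hg19), had 9.41, 7.99 and 9.28 FPKM in naive H9, against 14.4, 19.2 and 16.3 FPKM in primed H9. Naive libraries labelled RUES2 had 6.47, 5.89 and 13.0 FPKM of HLA-B, against 19.1, 24.5 and 21.8 FPKM in primed ones. The states did not overlap in either line, and naive RUES2 replicate 3 stood above the other 2 libraries of its group. HLA-B fell by 0.83 on the log2(FPKM + 1) scale in naive H9 (SE 0.232, adjusted p = 0.0151) and by 1.34 in naive libraries labelled RUES2 (SE 0.232, adjusted p = 0.00102). The H9 call ended without naive H9 replicate 2 (adjusted p = 0.052).

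HLA-C, the second classical heavy chain among the members and also a ligand of killer cell receptors on NK cells (chromosome 6, 31236526 to 31239913), was the most abundant heavy chain of the 4. Its level was 53.5, 52.6 and 52.2 FPKM in naive H9, against 91.5, 110 and 93.3 FPKM in primed H9. In libraries labelled RUES2 it was 31.3, 26.1 and 36.5 FPKM in naive cells, against 87.0, 40.8 and 105 FPKM in primed cells. No naive library reached the lowest primed library of its line, although primed RUES2 replicate 2 lay close to the naive range. HLA-C fell by 0.88 in naive H9 (SE 0.277, adjusted p = 0.0257) and by 1.19 in naive libraries labelled RUES2 (SE 0.277, adjusted p = 0.0055). In H9 the call was lost on leaving out a naive library, whichever it was, or primed replicate 2 or 3 (adjusted p 0.0507 to 0.0676), with the change between -0.80 and -0.91. These fits share 1 spread over all 4 groups. The SD of HLA-C was 33.0 FPKM in primed libraries labelled RUES2, against 0.661 FPKM in naive and 10.3 FPKM in primed H9. The call was kept in the fit of H9 libraries alone.

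HLA-F, a non-classical heavy chain that can reach the surface without peptide (chromosome 6, 29691117 to 29695073), was the lowest heavy chain. It stood at 0.592, 0.918 and 0.626 FPKM in naive H9, against 2.32, 2.96 and 3.72 FPKM in primed H9. Naive libraries labelled RUES2 held 1.26, 0.611 and 1.04 FPKM, against 2.84, 1.77 and 3.30 FPKM in primed ones. All 6 naive libraries lay below all 6 primed libraries. HLA-F fell by 1.21 in naive H9 (SE 0.195, adjusted p = 0.000702) and by 0.87 in naive libraries labelled RUES2 (adjusted p = 0.00423). HLA-F shares 696 bases of its span with HLA-F-AS1, an antisense gene, and no source used here gives the strandedness, so their reads cannot be told apart. HLA-F-AS1 was called lower in naive H9 (-1.29, adjusted p = 0.00643) and had 1.75 to 2.86 FPKM in naive libraries labelled RUES2, against 0.604 to 1.46 FPKM in primed ones (0.75, adjusted p = 0.0647).

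HLA-E, the non-classical heavy chain that presents leader peptides of other class I chains to NK cells (chromosome 6, 30457183 to 30461982), had no called change. Naive H9 had 12.4, 11.5 and 14.1 FPKM, against 12.7, 13.0 and 19.2 FPKM in primed H9. In libraries labelled RUES2 it was at 13.0, 11.8 and 16.5 FPKM in naive cells, against 14.6, 11.0 and 15.4 FPKM in primed cells. The states overlapped in both lines. Its change was -0.21 in H9 (95% interval -0.60 to 0.19, adjusted p = 0.376) and 0.01 in libraries labelled RUES2 (-0.39 to 0.41, adjusted p = 0.972). Between 1.7% and 6.7% of the 50-base windows of a heavy chain transcript also occur in transcripts of other genes (GENCODE 29), so reads of these 4 genes can be split between near copies.

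B2M, the light chain without which class I heavy chains do not reach the surface in their usual form (chromosome 15, 45003685 to 45010357), changed differently in libraries labelled RUES2 and in H9. Naive H9 had 43.8, 45.2 and 50.9 FPKM, against 51.2, 46.7 and 62.6 FPKM in primed H9. Naive libraries labelled RUES2 had 104, 154 and 169 FPKM, against 36.5, 43.7 and 45.8 FPKM in primed ones. The 3 naive libraries labelled RUES2 lay above all 9 others, and the states overlapped in H9. B2M rose by 1.72 on the log2(FPKM + 1) scale in naive libraries labelled RUES2 (SE 0.175, adjusted p = 3.85e-05), which is 3.40-fold by the group means, and had a change of -0.19 in H9 (95% interval -0.57 to 0.20, adjusted p = 0.412). Of 10 endothelial markers 3 were tested, with 2 higher and 0 lower in naive libraries labelled RUES2 and none called in H9. PECAM1, 1 of the 2, reached the filter's 1 FPKM only in naive libraries labelled RUES2. It thus entered testing through the group where it was high, and markers left untested could not be called in either direction. The 10 together summed to 17.2 to 22.4 FPKM in naive libraries labelled RUES2, against 6.18 to 14.2 FPKM in primed ones, and to 12.7 to 16.2 FPKM in naive H9, against 12.1 to 21.9 FPKM in primed H9. KDR made up most of the sum in naive libraries labelled RUES2, with a mean of 13.4 FPKM, against 6.1 FPKM in primed ones. By group means there, CDH5 (0.0324 against 0.0603 FPKM), TIE1 (0.0217 against 0.159) and VWF (0.17 against 0.346) were lower in naive cells. So were ERG (0.0162 against 0.219), CLDN5 (0.101 against 0.21) and TEK (1.62 against 1.92). ESAM (0.377 against 0.315) and EMCN (0.0573 against 0.0227) were higher. PECAM1, an adhesion molecule of endothelial cells, had 3.55, 5.29 and 1.02 FPKM in naive libraries labelled RUES2, against 0.159, 0.249 and 0.208 FPKM in primed ones, and lay between 0.206 and 0.274 FPKM in all H9 libraries. Its change exceeded that in H9 by 1.72 (adjusted p = 0.0498), a call lost without a filter, under quantile normalization, with the replicate block (adjusted p 0.0608 to 0.0647) and without most single libraries (0.0704 to 0.111). The part of these markers, and of the 3 libraries that stand apart from their line label, in the change of B2M was not tested.

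The difference of the naive effect between the lines was tested for all 9 genes, and B2M was the 1 gene called, where 5.70% of all genes tested were called in either direction. For B2M the change among libraries labelled RUES2 exceeded that in H9 by 1.90 (95% interval 1.35 to 2.45, adjusted p = 0.00296). For the other 8 genes the difference lay between -0.51 for HLA-B (-1.24 to 0.22, adjusted p = 0.418) and 0.34 for HLA-F (-0.27 to 0.95, adjusted p = 0.531). Without naive RUES2 replicate 3, HLA-B was called as well, at -0.83 (adjusted p = 0.0304). A p that misses the threshold does not show that the lines responded alike.

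**Figure D2:**
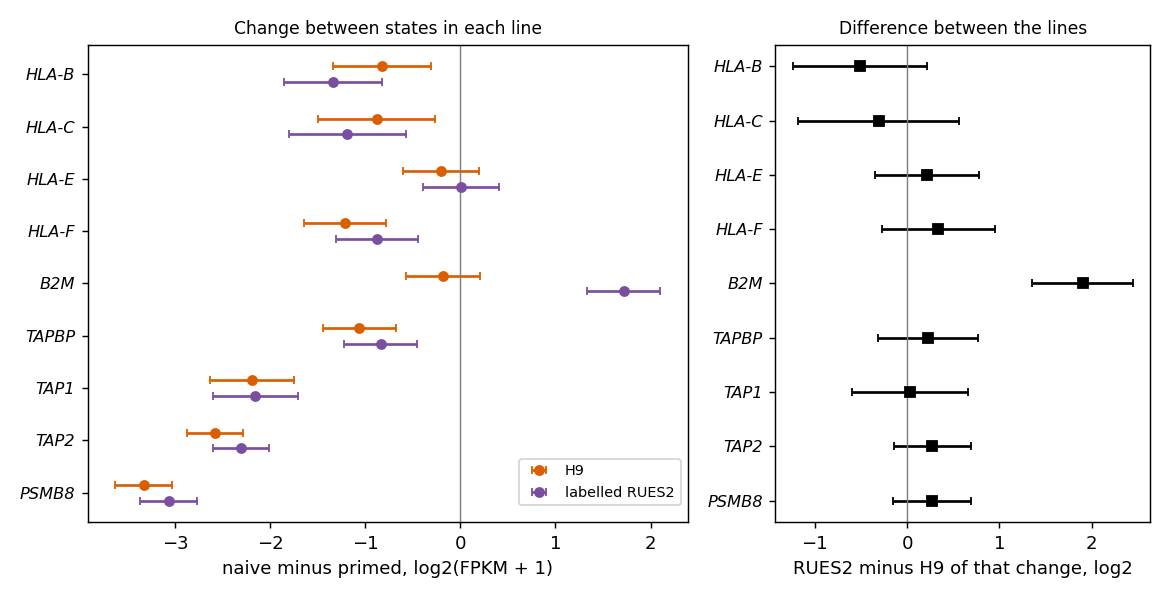
Left, the change of each gene between states (naive minus primed, log2(FPKM + 1)) in H9 and in libraries labelled RUES2; right, RUES2 minus H9 of that change; points are fitted values and bars 95% intervals. In both lines 7 genes lie left of 0 with intervals that exclude it, and B2M is the gene whose difference between the lines, 1.90, lies clear of 0.

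The peptide transporter was close to 0 FPKM in naive libraries. TAP1, a chain of the transporter (chromosome 6, 32812986 to 32821748), had 0.0656, 0.174 and 0.107 FPKM in naive H9, against 3.36, 3.42 and 5.83 FPKM in primed H9. In libraries labelled RUES2 it had 0.105, 0.0544 and 0.555 FPKM in naive cells, against 3.86, 4.20 and 5.35 FPKM in primed cells. The gap between the states was wider than the spread within any group, and naive RUES2 replicate 3 was again the highest naive library. TAP1 fell by 2.19 in naive H9 (SE 0.200, adjusted p = 2.03e-05) and by 2.16 in naive libraries labelled RUES2 (adjusted p = 2.19e-05).

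TAP2, its partner (chromosome 6, 32789610 to 32806547), had 0.0579, 0.0229 and 0.227 FPKM in naive H9, against 5.40, 5.53 and 5.78 FPKM in primed H9. It had 0.088, 0.149 and 0.472 FPKM in naive libraries labelled RUES2, against 4.39, 5.17 and 5.70 FPKM in primed ones. Each naive library stood far below each primed library, as for TAP1. TAP2 fell by 2.58 in naive H9 (SE 0.133, adjusted p = 5.62e-07) and by 2.31 in naive libraries labelled RUES2 (adjusted p = 1.32e-06). In the reference transcripts, 35.8% of the 50-base windows of TAP2 also occur under another identifier, AL669918.1. The deposited lower bounds reach 0 for TAP1 in naive H9 replicate 1 and naive RUES2 replicate 2 and for TAP2 in naive H9 replicates 1 and 2, so levels this low are weakly resolved.

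TAPBP encodes tapasin, which bridges the heavy chain and the transporter and favours peptides that bind well (chromosome 6, 33267472 to 33282164). Its level was 2.39, 2.40 and 2.85 FPKM in naive H9, against 6.07, 5.99 and 7.22 FPKM in primed H9. Naive libraries labelled RUES2 had 2.65, 2.41 and 4.48 FPKM, against 5.38, 7.35 and 6.32 FPKM in primed ones. States did not overlap, and the fall was smaller than that of the transporter: TAPBP fell by 1.06 in naive H9 (SE 0.173, adjusted p = 0.000769) and by 0.84 in naive libraries labelled RUES2 (adjusted p = 0.00278).

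PSMB8, the interferon-inducible subunit that takes the place of PSMB5 in the immunoproteasome (chromosome 6, 32808494 to 32812712), had the largest change of the 9 in both lines. It was listed at 0.0494, 0 and 0.0323 FPKM in naive H9, against 7.92, 8.67 and 11.8 FPKM in primed H9. In libraries labelled RUES2 it was listed at 0.0451, 0 and 0.103 FPKM in naive cells, against 6.84, 8.77 and 7.83 FPKM in primed cells. Naive values were at the floor in both lines, and the deposited upper bounds above 0 reached no more than 0.293 FPKM. PSMB8 fell by 3.33 in naive H9 (SE 0.135, adjusted p = 2.17e-07) and by 3.07 in naive libraries labelled RUES2 (adjusted p = 3.04e-07). None of its 50-base windows occurs in transcripts of another gene.

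Naive RUES2 replicate 3 was the highest library of its group for 8 of the 9 genes, and it also had the highest sum of fibroblast and stroma markers in the series, 1247 FPKM beside a group median of 390 FPKM. Leaving it out changed no call between states for the 9 genes in either line. Primed H9 replicate 3 was the highest of its group for 7 of the 9 genes.

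In naive libraries the order of levels ran differently from primed ones. HLA-C led with a mean of 52.8 ± 0.661 FPKM in naive H9 (SD, n = 3), just above B2M with 46.7 ± 3.71 FPKM, and in primed H9 it led with 98.3 ± 10.3 FPKM before B2M with 53.5 ± 8.19 FPKM. In naive libraries labelled RUES2, B2M led with 143 ± 33.9 FPKM and HLA-C followed with 31.3 ± 5.17 FPKM; in primed ones HLA-C had 77.5 ± 33.0 FPKM and B2M 42.0 ± 4.89 FPKM, with ranges that overlapped. By mean level B2M was in place 604 of all symbols in naive libraries labelled RUES2 and in place 1942 in primed ones. PSMB8 was in place 5 of the 9 in both primed groups, with 9.47 ± 2.07 FPKM in H9, and in the last place in both naive groups. TAP1 and TAP2 overlapped each other in all 4 groups.

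Between the lines, 0 of the 9 genes were called in primed cells, and 0 passed at an unadjusted p under 0.05, where 1.82% of all genes tested were called in either direction. The changes of RUES2 against H9 in primed cells lay between -0.44 for HLA-C (95% interval -1.05 to 0.18) and 0.37 for HLA-B (-0.14 to 0.89). In naive cells B2M was called, higher by 1.56 in libraries labelled RUES2 than in H9 (SE 0.175, adjusted p = 0.000378), where 15.9% of all genes were called. HLA-C was at 26.1 to 36.5 FPKM in naive libraries labelled RUES2, against 52.2 to 53.5 FPKM in naive H9, with a change of -0.75 that did not pass (95% interval -1.36 to -0.13, adjusted p = 0.0967). That change of HLA-C was called without primed RUES2 replicate 2 (adjusted p = 0.00438), in the fit of 2 groups (0.0108), with array weights (0.00154) and after rescaling without small RNA genes (0.0321).

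Counts called in this and the following lists, as for the markers above, stand against shares over all genes tested. In naive H9, 23.9% of all genes were called lower and 20.4% higher. In naive libraries labelled RUES2, 23.7% were called lower and 23.1% higher. No list was tested as a set. Other heavy chains went with the members. Of 9 listed genes 6 were tested, and 5 were lower and 0 higher in naive cells of each line, with medians of -0.96 in H9 and -0.76 in libraries labelled RUES2. HLA-H and HLA-J, pseudogenes of the family, were lower in both lines. HLA-H changed by -1.74 in H9 and by -1.59 in libraries labelled RUES2, and HLA-J by -0.54 in H9 and by -0.49 in libraries labelled RUES2. FCGRT, the heavy chain of the neonatal Fc receptor, which also pairs with B2M, had 2.20 ± 0.458 FPKM in naive H9 against 6.93 ± 1.36 FPKM in primed H9 (adjusted p = 0.000412), and 3.63 ± 0.965 FPKM in naive libraries labelled RUES2 against 8.40 ± 1.38 FPKM in primed ones (adjusted p = 0.00153).

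Most of the other listed partners of loading in the endoplasmic reticulum were called the other way. Of 9 tested, 7 were higher and 1 lower in naive H9, and 6 higher and 1 lower in naive libraries labelled RUES2. PDIA3 was called in neither line (0.10 in H9 and 0.08 in libraries labelled RUES2, adjusted p = 0.367 and 0.44). BCAP31 was called in H9 (1.03, adjusted p = 3.22e-05) but not in libraries labelled RUES2 (-0.01, adjusted p = 0.927). SEC61A1, the channel subunit of the translocon, had 93.9 ± 2.86 FPKM in naive H9 against 59.4 ± 9.92 FPKM in primed H9 (adjusted p = 0.00177), and 89.3 ± 1.41 FPKM in naive libraries labelled RUES2 against 58.4 ± 9.20 FPKM in primed ones (adjusted p = 0.00258). LNPEP, an aminopeptidase of endosomes counted in this list, rose by 0.80 in naive H9 and 0.68 in naive libraries labelled RUES2. HSPA5, the chaperone BiP, rose by 0.63 in naive H9 and by 0.59 in naive libraries labelled RUES2, where the call ended without naive replicate 1 or primed replicate 2 (adjusted p 0.0523 and 0.0544). ERAP1, which trims peptides to the length class I binds, was the 1 gene that fell, by 0.69 in naive H9 (adjusted p = 0.0121) and by 0.54 in naive libraries labelled RUES2 (adjusted p = 0.0328). The RUES2 call ended without naive RUES2 replicate 1 or 2 or primed RUES2 replicate 1 or 2 (adjusted p 0.0638 to 0.122), with the replicate number as a block (0.0541) and in the fit of 2 groups (0.0883).

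In the immunoproteasome and its activators, 3 of 6 genes were lower in naive cells of each line, with 2 higher in H9 and 1 higher in libraries labelled RUES2. PSMB9, the inducible subunit encoded beside TAP1, was listed at 0 in all 6 naive libraries, against 1.76, 1.02 and 1.18 FPKM in primed H9 (adjusted p = 6.96e-05) and 0.737, 0.597 and 1.09 FPKM in primed libraries labelled RUES2 (adjusted p = 0.000577). It passed the filter through primed libraries alone. PSME1, a subunit of the PA28 activator, had 12.4 ± 1.94 FPKM in naive H9 against 46.6 ± 5.42 FPKM in primed H9 (-1.83, adjusted p = 2.14e-06), and 16.4 ± 0.230 FPKM in naive libraries labelled RUES2 against 57.8 ± 5.28 FPKM in primed ones (-1.75, adjusted p = 2.88e-06). PSME2, its partner in PA28, fell by 0.65 in naive H9 (adjusted p = 6.82e-05) and by 0.60 in naive libraries labelled RUES2 (adjusted p = 0.000116). PSME3, a related activator of the nucleus, had 76.7 ± 3.21 FPKM in naive H9 against 57.7 ± 13.8 FPKM in primed H9 (0.43, adjusted p = 0.0344), a call lost on leaving out any naive H9 library (adjusted p 0.068 to 0.0978) and in the fit of 2 groups (0.103). POMP, an assembly factor of the proteasome, was the other gene higher in H9, with 89.4 ± 3.80 FPKM in naive H9 against 63.9 ± 5.77 FPKM in primed H9 (0.48, adjusted p = 0.0112). PSMB10, the third inducible catalytic subunit beside PSMB8 and PSMB9, was the gene higher in libraries labelled RUES2. It had 20.5, 38.4 and 23.0 FPKM in naive libraries labelled RUES2, against 17.6, 14.3 and 17.8 FPKM in primed ones (0.64, adjusted p = 0.0194), and 13.1, 14.2 and 13.6 FPKM in naive H9, against 18.1, 17.6 and 14.9 FPKM in primed H9 (-0.28, adjusted p = 0.26). The states did not overlap under either line label, the difference between the labels was not called (0.92, adjusted p = 0.0793), and the RUES2 call ended in the fit of 2 groups (0.0702) and without primed RUES2 replicate 2 (0.0679). Of the 14 constitutive core subunits, 2 were higher and 0 lower in naive H9, and 3 higher and 1 lower in naive libraries labelled RUES2. The called change of PSMB2, a constitutive beta subunit, was 0.33 in H9 and 0.30 in libraries labelled RUES2. PSMB3 had a change of 0.34 in libraries labelled RUES2 (adjusted p = 0.0054) and of 0.21 in H9 (adjusted p = 0.0543). PSMA6 was called in libraries labelled RUES2 at 0.26 (adjusted p = 0.0222), but not without naive replicate 1 or 2 or primed replicate 2 (0.0643 to 0.0691), under quantile normalization (0.119) or in the fit of 2 groups (0.0785). PSMA1 was called in H9 at 0.27 (adjusted p = 0.0182), but not without naive replicate 2 or 3 or primed replicate 3 (0.0512 to 0.0533).

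Among factors that bind or co-activate class I promoters, 6 of 18 tested were lower and 2 higher in naive H9, and 6 were lower and 4 higher in naive libraries labelled RUES2. Over all genes tested, 23.9% were lower and 20.4% higher in naive H9, and 23.7% lower and 23.1% higher in naive libraries labelled RUES2. NLRC5, the main co-activator of class I genes, had 0.0760, 0.0163 and 0.0679 FPKM in naive H9, against 0.119, 0.0548 and 0.187 FPKM in primed H9. Naive libraries labelled RUES2 had 1.02, 2.60 and 1.09 FPKM of NLRC5, against 0.117, 0.200 and 0.218 FPKM in primed ones. The naive libraries labelled RUES2 were thus the highest of the 12, as for B2M. NLRC5 reached the filter's 1 FPKM only in those libraries, so it entered testing through the group where it was high. Its tests there are therefore not independent of the filter. NLRC5 rose by 1.07 in naive libraries labelled RUES2 (adjusted p = 0.00116), and its change exceeded that in H9 by 1.16 (adjusted p = 0.0335). The call of that difference was lost on leaving out any naive H9 or any primed RUES2 library, or primed H9 replicate 1 or 3 (adjusted p 0.0545 to 0.0821), and with the replicate number as a block (0.0524). IRF2, which binds the interferon-stimulated response element, fell by 0.83 in naive H9 (adjusted p = 0.000576) and by 0.68 in naive libraries labelled RUES2 (adjusted p = 0.00177). NFYB, a subunit of the factor that binds CCAAT, fell by 0.55 in naive H9 (adjusted p = 0.0006) and by 0.80 in naive libraries labelled RUES2 (adjusted p = 5.03e-05). NFKB1, a subunit of NF-kB, rose by 0.45 in naive H9 (adjusted p = 0.029) and by 1.04 in naive libraries labelled RUES2 (adjusted p = 0.000288). For NFKB1 the H9 call was lost on leaving out any naive library or primed replicate 1 or 3 (adjusted p 0.0571 to 0.0993).

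Interferon receptors and JAK-STAT genes, 13 tested, had 2 higher and 1 lower in naive H9, and 7 higher and 0 lower in naive libraries labelled RUES2. SOCS3, a feedback inhibitor that LIF and other cytokines induce, rose by 1.10 in naive H9 (adjusted p = 0.0129, or 0.0512 without naive H9 replicate 3) and by 1.67 in naive libraries labelled RUES2 (adjusted p = 0.00121). IFNGR1, the ligand-binding chain of the interferon gamma receptor, rose by 0.37 in naive H9 (adjusted p = 0.013) and by 0.43 in naive libraries labelled RUES2 (adjusted p = 0.00526). TYK2, a kinase of the type I receptor, and IFNAR1, a chain of that receptor, were called in libraries labelled RUES2, at 0.73 and 0.42 (adjusted p = 0.00276 and 0.00719), and had 0.36 and 0.24 in H9 (adjusted p = 0.0733 and 0.0815).

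Interferon-stimulated genes did not move as a body. Of 18 tested, 6 were lower and 3 higher in naive H9, and 6 were lower and 6 higher in naive libraries labelled RUES2, with medians of -0.0025 in H9 and -0.13 in libraries labelled RUES2. UBE2L6, the conjugating enzyme of ISG15, had 3.98 ± 1.23 FPKM in naive H9 against 24.4 ± 3.56 FPKM in primed H9 (-2.37, adjusted p = 2.28e-05), and 3.93 ± 1.26 FPKM in naive libraries labelled RUES2 against 32.7 ± 4.88 FPKM in primed ones (-2.79, adjusted p = 8.3e-06). ISG15, the ubiquitin-like protein itself, fell by 1.79 in naive H9 (adjusted p = 0.00132) and by 1.67 in naive libraries labelled RUES2 (adjusted p = 0.00175). TRIM22, an antiviral ubiquitin ligase, fell by 2.12 in naive H9 (adjusted p = 0.00119) and by 1.42 in naive libraries labelled RUES2 (adjusted p = 0.00991, or 0.0517 in the fit of 2 groups). USP18, which removes ISG15 and damps the type I receptor, rose by 1.25 in naive H9 (adjusted p = 0.00102) and by 2.79 in naive libraries labelled RUES2 (adjusted p = 6.24e-06), and the difference between the lines was called at 1.54 (adjusted p = 0.0165).

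MHC class II genes, 7 tested, had 6 lower and 0 higher in naive H9, and 5 lower and 1 higher in naive libraries labelled RUES2. HLA-DOA, a chain that tunes class II loading, had 0.571 to 0.681 FPKM in naive H9, against 6.58 to 13.8 FPKM in primed H9, and 0.132 to 0.171 FPKM in naive libraries labelled RUES2, against 9.31 to 11.5 FPKM in primed ones. CD74, the invariant chain, fell by 1.99 in naive H9 (adjusted p = 0.00314) and by 2.99 in naive libraries labelled RUES2 (adjusted p = 0.000243). In naive H9, HLA-DPB1, a beta chain, fell by 1.18 and HLA-DMA, of the peptide exchanger, by 0.97; in naive libraries labelled RUES2 HLA-DPB1 fell by 1.71 and HLA-DMA by 1.30. HLA-DQB1, another beta chain and the next tested gene below TAP2, was the exception, with -1.88 in H9 (adjusted p = 0.0015) and 1.60 in libraries labelled RUES2 (adjusted p = 0.00351).

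Ligands of NK cell receptors, 8 tested, had 2 higher and 0 lower in naive H9, and 5 higher and 2 lower in naive libraries labelled RUES2. PVR, the poliovirus receptor that DNAM-1 recognises, had 15.8 ± 2.23 FPKM in naive H9 against 6.20 ± 0.731 FPKM in primed H9 (adjusted p = 4e-05), and 18.3 ± 2.60 FPKM in naive libraries labelled RUES2 against 6.46 ± 0.100 FPKM in primed ones (adjusted p = 2.01e-05). MICB, a ligand of NKG2D, rose by 0.69 in naive H9 (adjusted p = 0.00253) and by 0.83 in naive libraries labelled RUES2 (adjusted p = 0.000738). MICA, its relative and the nearest tested gene above HLA-B, had 16.9, 22.4 and 13.8 FPKM in naive libraries labelled RUES2, against 5.98, 5.23 and 7.41 FPKM in primed ones (1.36, adjusted p = 0.00022), and changed by 0.26 in H9 (adjusted p = 0.275). CD48, a ligand of the receptor 2B4, was called in libraries labelled RUES2 at 1.98 (adjusted p = 0.000673). CD48 reached the filter's 1 FPKM only in naive libraries labelled RUES2, so it entered testing through the group where it was high. The differences between the lines were called for both, at 1.10 for MICA (adjusted p = 0.0358) and 1.79 for CD48 (adjusted p = 0.0471), and both calls ended without most single libraries (adjusted p 0.0587 to 0.0934 for MICA and 0.0503 to 0.109 for CD48). The CD48 difference was also lost with a pseudocount of 0.1, without a filter, under quantile normalization and with the replicate block (adjusted p 0.0527 to 0.0765).

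**Figure D3:**
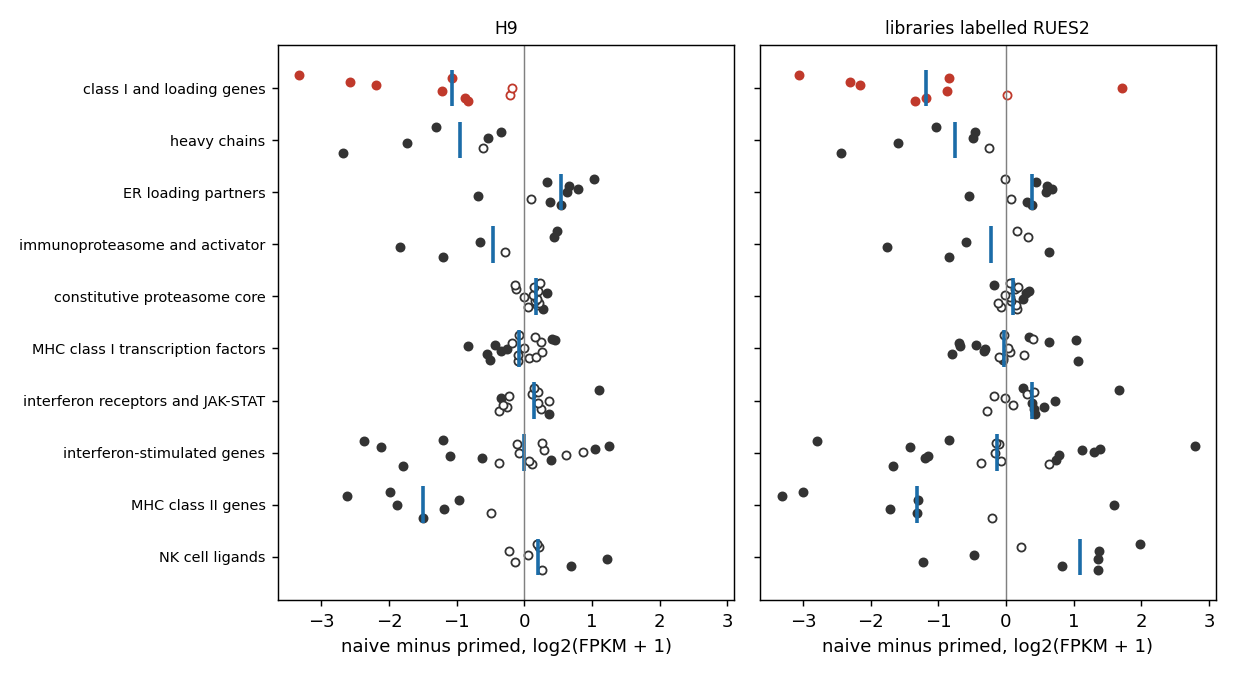
Change of each tested gene (naive minus primed, log2(FPKM + 1)) in the 9 class I and loading genes, in red, and in 9 lists of related genes, in H9 on the left and in libraries labelled RUES2 on the right; filled points passed an adjusted p of 0.05, open points did not, and bars are list medians. The class I, heavy chain and class II rows lie mostly left of 0, and the endoplasmic reticulum partners mostly right of it.

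On chromosome 6 the members that fell most sit together. Changes are given here in H9 and then in libraries labelled RUES2. PSMB8 and TAP1 are 273 bases apart on hg19, TAP2 and PSMB8 1946 bases, and TAP1 and PSMB9 189 bases, so that TAP2, PSMB8, TAP1 and PSMB9 stand in a row. TAP1 and PSMB8 each share bases (1292 and 850) with LOC100507463, which was listed at 0 in all 6 naive libraries and at no more than 0.313 FPKM in primed ones. Beside TAPBP, RGL2, 306 bases below it, was lower in both lines (-1.10 and -1.11, adjusted p = 1.88e-05 and 1.66e-05), whereas ZBTB22, 17 bases above it, had 0.27 and -0.07 (adjusted p = 0.187 and 0.741). POU5F1, the pluripotency factor OCT4 and the nearest tested gene below HLA-C at 98.1 kb, was lower in both (-1.05 and -0.56, adjusted p = 0.000138 and 0.00526). Next to HLA-E, GNL1 had 0.22 and -0.04 (adjusted p = 0.148 and 0.783), and RPP21 was called in libraries labelled RUES2 (-0.36, adjusted p = 0.00366) but not in H9 (-0.13, adjusted p = 0.202). HLA-F has MOG (-0.16 and -0.03, adjusted p = 0.365 and 0.864) and HLA-G (-0.61 and -0.25, adjusted p = 0.0638 and 0.423) at its sides. On chromosome 15, SPG11 and SORD are the nearest tested genes to B2M. SPG11 had -0.33 in H9 (adjusted p = 0.0167, or 0.0646 without naive H9 replicate 2) and -0.14 in libraries labelled RUES2 (adjusted p = 0.238), and SORD had -0.60 and 0.22 (adjusted p = 0.00939 and 0.26). The difference between the line labels was 0.82 for SORD (adjusted p = 0.0532) and 0.19 for SPG11 (adjusted p = 0.472), neither of them called.

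The 8 members on chromosome 6 span 3591 kb (29691117 to 33282164), where 110 other genes were tested. Of those 110, 36 were lower and 13 higher in naive H9, with a median change of -0.14, and 26 were lower and 16 higher in naive libraries labelled RUES2, with a median of -0.04. Over all genes tested, 23.9% were called lower and 20.4% higher in naive H9. In naive libraries labelled RUES2, 23.7% of all genes tested were called lower and 23.1% higher. Among the lowest called values of the span were those of PSMB8, HLA-DOA, TAP2, HLA-DPB2 and TAP1, in both lines. HLA-DPB2 is a class II pseudogene. SNORD84, a small RNA in this span, had a lower value in both lines that was not called (-3.09 in H9, adjusted p = 0.23, and -5.17 in libraries labelled RUES2, adjusted p = 0.0541).

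**Figure D4:**
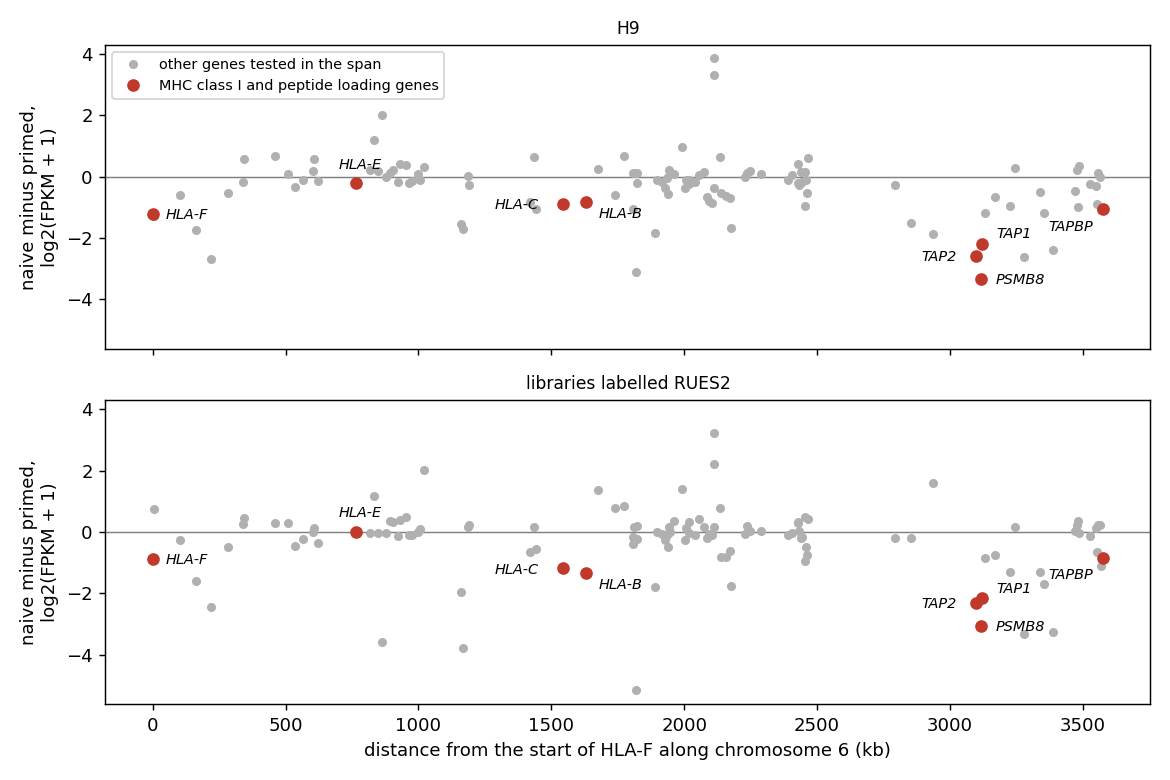
Change of each tested gene between states (naive minus primed, log2(FPKM + 1), vertical axis) against its distance from the start of HLA-F along chromosome 6 in kb, in H9 above and in libraries labelled RUES2 below; red points are the 8 members on this chromosome and grey points the 110 other tested genes. TAP2, PSMB8 and TAP1 form a low group from 3098.5 to 3121.9 kb, at -2.58, -3.33 and -2.19 in H9.

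The genes whose pattern over the 12 libraries was most like that of a member were found by the root mean square difference of log2(FPKM + 1), each gene centred on its own mean. For PSMB8 these were USP44 (0.181), MFGE8 (0.196) and EPHA1 (0.246), where the spread of PSMB8 about its own mean was 1.61. CACNA1H (0.144), GLB1L3 (0.171) and ERBB2 (0.174) came nearest to TAP2, and HOOK1 (0.223), TAP2 (0.223) and IGSF21 (0.224) to TAP1, the only case in which a member was among the 3 nearest to another. B2M was nearest to DMRT1 (0.202), MBNL1 (0.228) and MECOM (0.231), with a spread of 0.709. For TAPBP they were CCDC24 (0.140), ORAI3 (0.145) and SEZ6L2 (0.151). Among heavy chains, HLA-B was nearest to KCTD11 (0.156), NYNRIN (0.179) and MMP11 (0.187), and HLA-C to KCNE1L (0.224), S100A4 (0.233) and ARHGAP23 (0.246). HLA-F was nearest to IER2 (0.113), KCNK5 (0.124) and NGFR (0.144), and HLA-E, whose own spread was 0.208, to C22orf23 (0.0940), ITPKB (0.116) and SEC23A (0.118). These are descriptions over libraries that share states and differ in depth.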

How the data were processed

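Poly(A) RNA of 12 libraries was measured. The submitters' processing notes name TopHat2 2.1.1, bcl2fastq 2.17.1.14 and hg19; the expression program, annotation and strand setting were not given in the sources used here. Each library has a table, as the authors deposited it, of FPKM and confidence bounds per the file headers, while the design text says RPKM. Each held 25278 entries for 23615 symbols. Members were read from their loci on chromosomes 6 and 15; their entries on haplotype contigs, like all 1239 such entries, were at 0. HLA reads were thus assigned to 1 reference sequence per locus. No column was without a sample (0).

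The members, gene lists and tests were chosen with earlier results of these data known. The 14429 genes that reached 1 FPKM in 3 or more libraries entered limma 3.58.1 (R 4.3.3) as log2(FPKM + 1), with a mean per group over all 12 libraries and a variance trend; two-sided p-values were adjusted after Benjamini and Hochberg over all of them, and the procedure was checked on simulated data. Genes that reached 1 FPKM in 1 state or group alone passed the filter only through the libraries where they were high. Their calls in that direction are not independent of the filter. Named beside the 9 members are up to 4 called genes of each list with the largest mean change. The nearest tested gene on each side of a member and the 3 genes most like each member are named too. Not every gene this rule selects is reported here. Overlapping genes, HLA-DQB1 within its list, HLA-DPB2, PSMB10, POMP, PDIA3, BCAP31 and NANOG were added after their values were seen. So were PECAM1 and the other endothelial markers named. The tables used here hold no read counts: sums of FPKM ran from 762869 to 992404, of which MIR4461, a short RNA, took 16.6% to 32.9%. Under 60 implied fragments, 40.3% to 43.5% of values came within 0.05 of whole numbers, too few to recover reads, and count tests were not used. The threshold of the line check was set after its values were seen. Alternatives were pseudocount, filters, scalings, all loci, fits of 2 groups, replicate block, array weights and leaving out each library. Promoters are from RefSeq (GRCh38.p14), and Python 3.11.15, pandas 2.3.3 and matplotlib 3.10.9 served for summaries and plots.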

Additional observations from a re-analysis of the deposited data

Results flagged for a closer look

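B2M was singled out because its change between states differed between libraries labelled RUES2 and H9 by a test of that difference. The change among libraries labelled RUES2 exceeded that in H9 by 1.90 on the log2(FPKM + 1) scale (SE 0.247, adjusted p = 0.00296 from limma), with naive libraries above primed ones in RUES2 by label (104 to 169 FPKM, against 36.5 to 45.8 FPKM) and overlapping states in H9 (43.8 to 50.9 FPKM, against 46.7 to 62.6 FPKM). The call was kept in every alternative run. Heavy chains did not share it: HLA-B and HLA-C were lower in naive libraries labelled RUES2. Genotype-dependent genes set 3 of the 12 libraries apart from the rest of their line label, none of them labelled H9, and the part of that in the difference was not tested.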

How the results depend on the processing

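The 7 members called lower in H9 and the 8 called in libraries labelled RUES2 were called at the same counts under another pseudocount, without a filter, under the 3 other scalings, with all loci summed, in fits of 2 groups, with the replicate block and with array weights. Under a filter of 5 FPKM the counts were 5 and 6, since members below it are not tested, and without 1 library they were 5 to 7 and 8.

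Gene counts over the whole table moved most for the line comparisons; the cause was not tested. For the difference of the naive effect 823 genes were called, 424 under the filter of 5 FPKM, 3529 with array weights and 408 to 920 without 1 library. RUES2 against H9 in naive cells gave 2289, 1469 under that filter, 6396 with array weights and 1213 to 2811 without 1 library. In primed cells it gave 262, 102 under that filter, 27 in the fit of 2 groups, 2603 with array weights and 61 to 385 without 1 library. The share of higher among called genes was 66.1% for the difference, 74.0% in primed cells and 70.4% in naive cells; rescaled without small RNA genes it was 53.4%, 71.9% and 45.5%, under quantile normalization 55.9%, 62.8% and 54.3%, and under median-of-ratios scaling 59.2%, 68.6% and 58.5%. Members called between lines in naive cells were 1, but 2 when rescaled or in the fit of 2 groups, 3 with array weights (HLA-C and HLA-F beside B2M) and 1 to 2 without 1 library; for the difference they were 1, or 1 to 2 without 1 library.

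Signs turned only for changes that were not called. Array weights gave HLA-E 0.13 in primed cells, -0.014 for the difference and -0.078 between states of RUES2, HLA-F 0.14 in primed cells and TAP1 -0.094 for the difference. Rescaling gave HLA-E -0.017 between lines in naive cells and -0.061 between states of RUES2. Without 1 library, the values between lines in naive cells were -0.46 to 0.053 for HLA-B, -0.023 to 0.20 for HLA-E, -0.0067 to 0.064 for PSMB8, -0.047 to 0.23 for TAP1 and -0.0055 to 0.34 for TAPBP. In primed cells they were -0.21 to 0.072 for HLA-E, -0.28 to 0.037 for HLA-F, -0.018 to 0.31 for TAP1 and -0.12 to 0.078 for TAPBP. The difference for TAP1 ran from -0.18 to 0.15, and the RUES2 state change of HLA-E from -0.13 to 0.11.

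With the replicate number as a block, 170 genes were called between lines in primed cells, and no member changed its call. Same-numbered libraries deviated together weakly if at all (r of -0.054 to 0.082 across genes), which cannot settle whether the numbers pair the samples. In libraries labelled RUES2, same-numbered libraries had r of 0.007 to 0.082, against -0.081 to 0.003 for unlike numbers. In H9 the ranges were -0.054 to 0.008 and -0.065 to 0.107. The 2-group fit ended the calls of TRIM22 (adjusted p = 0.0517), PSMA6 (0.0785), PSMB10 (0.0702) and ERAP1 (0.0883) in RUES2 and of PSME3 (0.103) in H9. Values under about 0.5 FPKM, as for TAP1, TAP2 and PSMB8 in naive cells, rest on few fragments.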
